A study of Bos taurus with 6 samples.

Results

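The genes described here are 48 genes of the G2 phase, of mitosis and of the kinetochore, listed by symbol with earlier results of these data known, and kept where their mean over all libraries reached a minimum. The deposited bovine table held a row for all 48, each averaged 10 or more scaled counts over the 6 libraries, and they made up 48 of the 12070 named genes that were tested. Polyadenylated RNA was measured in pools of 15 bovine late morulae, collected on day 6 after in vitro fertilization. The control embryos had been injected with a nonspecific small interfering RNA (siRNA, a short RNA that lowers the messenger RNA it pairs with), the second group was a knockdown of NOTCH1, a receptor of the NOTCH pathway, and the third a knockdown of RBPJ, the DNA-binding protein of that pathway. Each of the 3 groups had 2 libraries, every pool carried the same added amount of GFP and RFP messenger RNA, and the labels give neither the knockdown sequences, a breed nor a time of injection.

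Cells enter mitosis when cyclin-dependent kinase 1, bound to a B-type cyclin, is switched on, and they leave it when the anaphase-promoting complex marks the cyclins and securin for destruction. In between, chromosomes are condensed, their kinetochores attach to spindle microtubules, and a checkpoint delays anaphase until every kinetochore is attached. In many cell types these messenger RNAs are made together in late S and G2 phase, and in cleaving embryos they support divisions that follow each other without growth of the embryo.

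The values given are scaled read counts as deposited by the authors, so that libraries can be compared for 1 gene; they are not corrected for gene length, and levels of different genes are not compared. The scaled total per library lay between 10365700 and 10815600, and the approximate depth between 9730000 and 13600000 reads. RBPJ stood at 447 and 391 in the control and at 121 and 94.5 in its knockdown (limma, adjusted p = 0.00143). NOTCH1 stood at 69.6 and 140 in the control, at 48.03 and 49.50 in its knockdown and at 50.02 and 125 in the RBPJ knockdown. Its difference from the control in the NOTCH1 knockdown did not pass (limma, adjusted p = 0.634), and 1 RBPJ knockdown library was about as low as both NOTCH1 knockdown libraries. Of 12 listed embryo markers 11 had a row, SOX2 being the one without, and these were present in every library. POU5F1 lay between 10911 and 12942, KRT18 between 5878 and 11454, and NANOG, the lowest, between 125 and 200. Of 20 listed cumulus, granulosa and fibroblast markers 12 were tested, and the list summed to 951 to 1104 in the control, 891 to 1071 in the NOTCH1 knockdown and 1058 to 1060 in the RBPJ knockdown. Of 12 blood and immune markers 6 were tested, and that list summed to 2464 to 3486, 2153 to 2661 and 2550 to 3095. Most of each sum came from HBA (976 to 1380 over all libraries) and CSF1R (843 to 1829). HBB, PTPRC, CD3E, CD3D, ITGAM and CD79A averaged below 10. No marker of either list that had a row was at 0 in every library.

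Most of the 48 genes were highest in 1 control library, and the counts below depend on that library. Replicate 1 of the control held the highest value of 32 of the 48 genes (66.7%), against 21.4% of all genes tested. Replicate 2 of the RBPJ knockdown held the lowest value of 21 genes (43.8%, against 16.6% of all genes tested). Summed over the 48 genes, the scaled count was 76108 and 67318 in the control, 70672 and 68888 in the NOTCH1 knockdown and 67026 and 64254 in the RBPJ knockdown. The sum of the second control library thus lay below both NOTCH1 knockdown libraries and above both RBPJ knockdown libraries. In a bulk library, fewer dividing cells and less of these messenger RNAs per cell cannot be told apart.

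**Figure D1:**
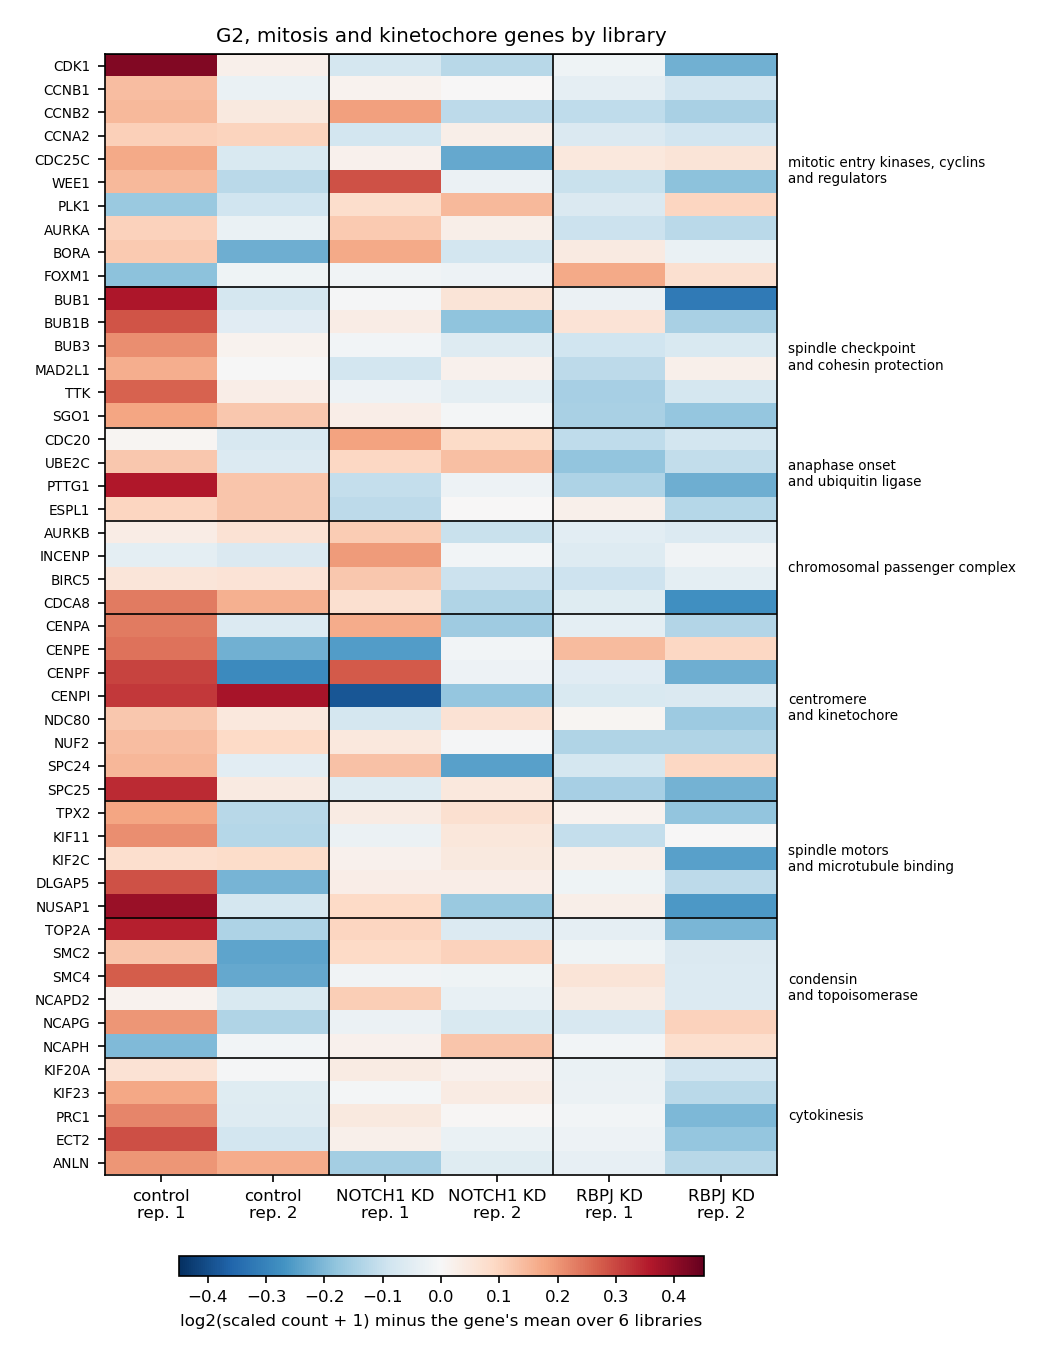
Each row is 1 of the 48 genes, grouped by role, and each column 1 library; the colour gives log2(scaled count + 1) minus the gene's mean over the 6 libraries. The column of control replicate 1 is mostly red, with 44 of 48 genes above their mean, whereas 17 are above it in control replicate 2 and 9 in RBPJ knockdown replicate 2.

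As deviations from each gene's mean on the log2 scale, the median over the 48 genes was 0.17 and -0.049 in the control, 0.030 and -0.016 in the NOTCH1 knockdown and -0.043 and -0.11 in the RBPJ knockdown. Over all genes tested the same medians lay within 0.018 of 0. The range within 1 gene was modest. The highest library exceeded the lowest by 1.28-fold in the median over the 48 genes, from 1.11-fold for KIF20A to 1.69-fold for CENPI, against 1.41-fold in the median over all genes tested.

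The gap between replicates was uneven across roles. In the control, 40 of 48 genes (83.3%) were higher in replicate 1 than in replicate 2, with a median log2 gap of 0.20, while 50.0% of all genes tested were. CENPF, a large kinetochore protein, had 2053 and 1363 in the control, the widest ratio of the 48 at 1.51. SMC4, a core subunit of condensin, had 2878 and 2029. TOP2A, the topoisomerase that untangles sister chromosomes, had 3488 and 2481. Genes of the chromosomal passenger complex were level between the control libraries by contrast, with a median log2 gap of 0.0067 over its 4 genes, and NCAPH and FOXM1 went the other way (814 and 927, and 862 and 966). In the knockdown groups the signed medians were smaller, at 0.029 for NOTCH1 and 0.061 for RBPJ, and 30 and 33 of the 48 genes were higher in replicate 1. Regardless of sign, the median gap of the 48 genes was 0.20 in the control, 0.096 in the NOTCH1 and 0.086 in the RBPJ knockdown. Over all genes tested it was 0.22, 0.17 and 0.18, so the control gap of the 48 genes was not wider than that of all genes.

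**Figure D2:**
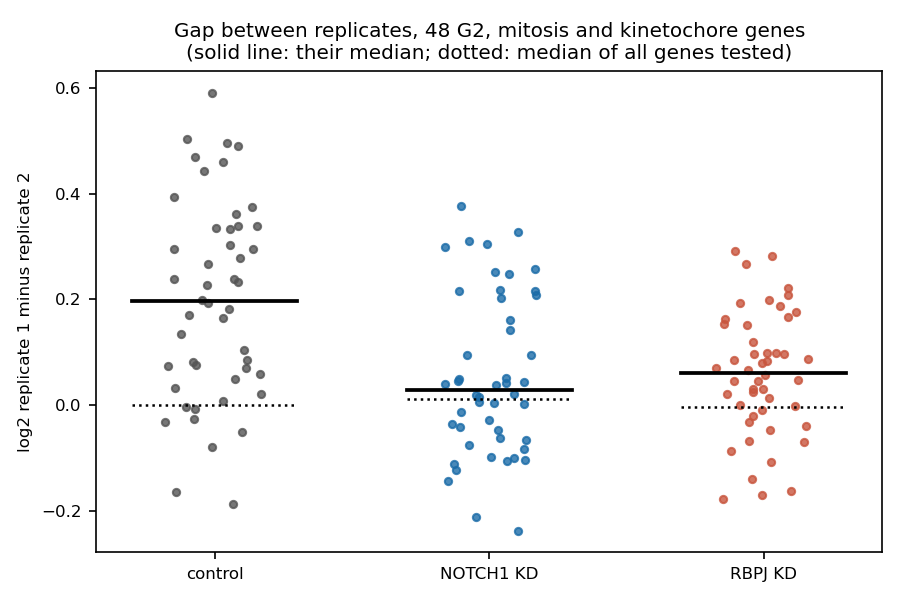
Each point is 1 of the 48 genes; the vertical axis is the log2 value of replicate 1 minus that of replicate 2, by group, with the median of the 48 genes as a solid line and that of all genes tested as a dotted line. The control median of 0.20 lies above those of 0.029 and 0.061 in the knockdown groups, and the all-gene medians lie near 0.

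In NOTCH1 knockdown embryos, 35 of the 48 genes (72.9%) were lower by sign than in the control, against 48.9% of all genes tested. By sign refers here and below to the log2 fold change on log2(scaled count + 1). The median log2 fold change was -0.071, against 0.0059 over all genes. Both knockdown libraries lay below both controls for 12 genes (25.0%, against 17.2% of all genes tested) and above both for 4 (PLK1, CDC20, INCENP and NCAPH, 8.33%, against 18.6%). limma called 0 of the 48 at an adjusted p below 0.05, as it called 0% of all genes. A fit that blocks on the replicate number called 1 of the 48, CENPI, and 138 of all genes (1.14%), but the labels do not say what a number shares. Before adjustment 3 of the 48 had a p below 0.05 downward (2.73% of all genes did), CENPI, PTTG1 and ANLN, and 1 upward (4.57% of all genes), PLK1. The counts rest on the control libraries: without replicate 1 of the control, 21 of the 48 genes were lower and the median was 0.041, and without its replicate 2, 42 were lower and the median was -0.17. Without replicate 2 of the NOTCH1 knockdown the median was -0.037, with 29 lower. Rescaling to equal totals moved the median of the 48 genes to -0.12, with 37 lower, and that of all genes to -0.041, and quantile normalization gave -0.11 and -0.0069.

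In RBPJ knockdown embryos, 39 of the 48 genes (81.2%) were lower by sign, against 50.3% of all genes tested, and the median log2 fold change was -0.15, against -0.0018 over all genes. Both knockdown libraries lay below both controls for 22 genes (45.8%, against 16.8% of all genes tested) and above both for 2 (PLK1 and FOXM1, 4.17%, against 15.3%). limma called 0 of the 48 at an adjusted p below 0.05, where 0.00829% of all genes, which is RBPJ alone, passed, and 0 of the 48 with the replicate block, where 0.0994% of all genes passed. Before adjustment 5 of the 48 had a p below 0.05 downward (1.52% of all genes did), namely PTTG1, CENPI, CDCA8, SGO1 and CDK1, and 0 upward (2.83% of all genes). Without replicate 1 of the control, 30 of the 48 were lower and the median was -0.033, and without its replicate 2, 44 were lower and the median was -0.26. Both comparisons use the same 2 control libraries, so their directions are not independent of each other. A gene whose knockdown libraries in both groups all lie on the same side of the controls is therefore not 2 separate results. The share of all genes tested with that joint pattern is not given here.

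Measured against each control library in turn, the knockdown libraries gave different counts. Both NOTCH1 knockdown libraries lay below replicate 1 of the control for 35 of the 48 genes and below replicate 2 for 12, and they lay above replicate 2 for 23. Both RBPJ knockdown libraries lay below replicate 1 for 43 genes and below replicate 2 for 22, and above replicate 2 for 13. Over all genes tested these shares were between 32.5% and 36.9% for either control library, in either direction.

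Oocyte and maternal transcripts, which the egg stores, were lower by sign than in the control for 19 of 21 genes in each knockdown. Of 28 listed, 25 had a row and 21 were tested, and the list summed to 3530 and 3879 in the control, 3103 and 3262 in the NOTCH1 knockdown and 2940 and 3303 in the RBPJ knockdown. By library, the median deviation of this list was 0.15 and 0.58 in the control, -0.63 and 0.15 in the NOTCH1 knockdown and -0.15 and 0.14 in the RBPJ knockdown, so that its highest library was replicate 2 of the control and not replicate 1. Of 13 mitochondrially encoded genes, 12 had a higher mean in the NOTCH1 knockdown than in the control and 10 in the RBPJ knockdown, with median deviations by library of 0.012 and -0.17, 0.12 and 0.0022, and 0.067 and -0.063 in the same order. Of 11 embryo markers, 10 had a higher mean in the NOTCH1 and 6 in the RBPJ knockdown. The part of these lists in the values of the mitotic genes was not tested.

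**Figure D3:**
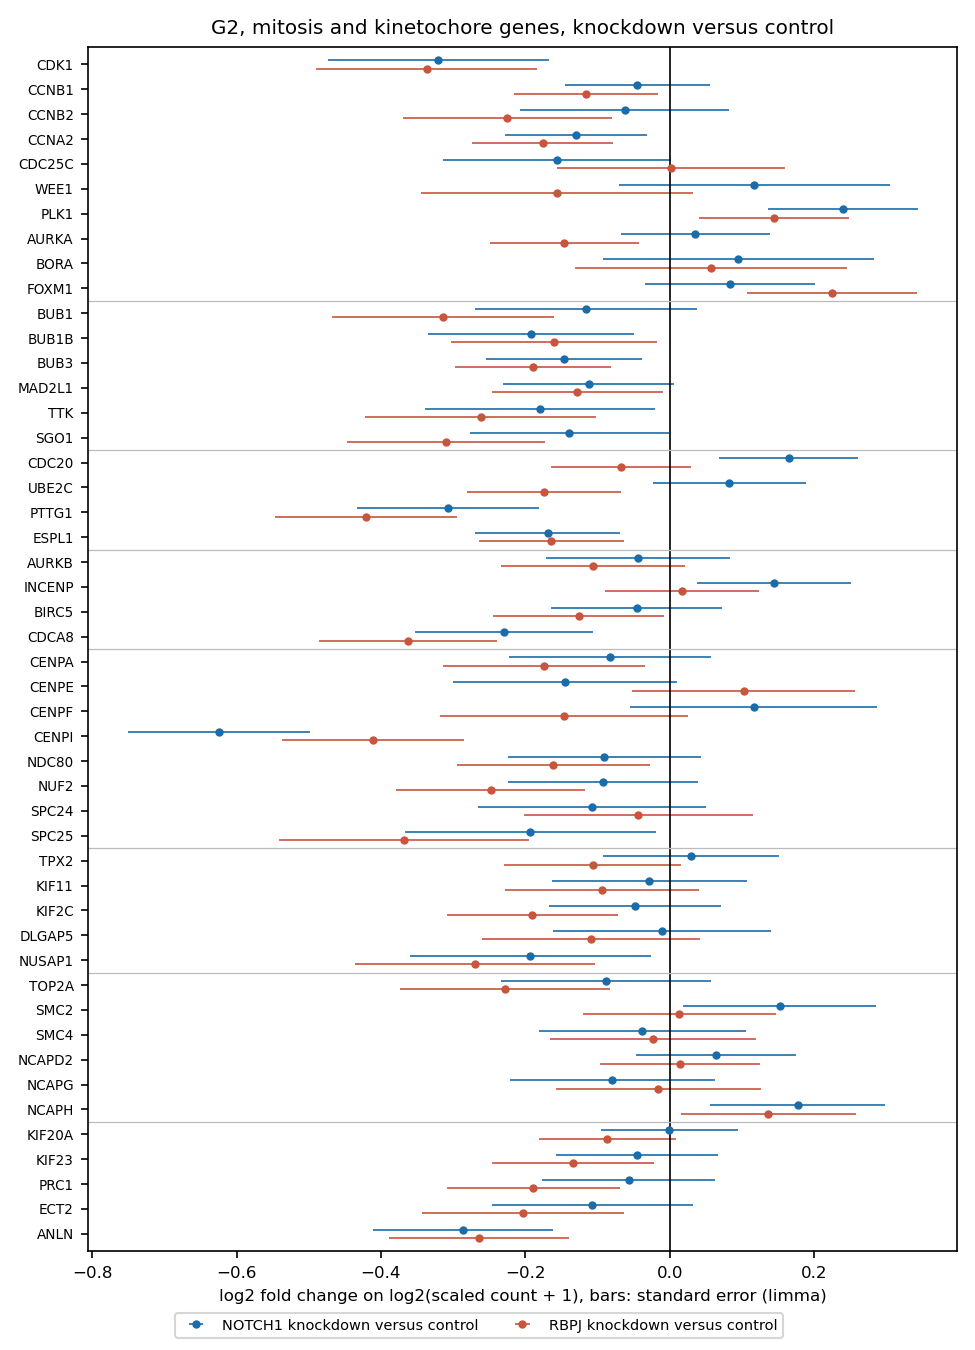
Points give the log2 fold change of each of the 48 genes on the log2(scaled count + 1) scale in the NOTCH1 (blue) and RBPJ (red) knockdown against the same control libraries, and bars the standard error from limma. Most points lie left of 0, with medians of -0.071 and -0.15, and CENPI is lowest in the NOTCH1 knockdown at -0.62. PLK1, FOXM1, BORA, INCENP, SMC2, NCAPD2 and NCAPH lie right of 0 in both knockdowns.

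Of the 10 genes of mitotic entry, 5 were lower by sign in the NOTCH1 and 6 in the RBPJ knockdown, so that no direction was common to them. CDK1, the kinase that drives cells into mitosis, had scaled counts of 783 and 596 in the control, 555 and 539 in the NOTCH1 knockdown and 579 and 505 in the RBPJ knockdown. All 4 knockdown libraries lay below both controls, with the first control library well above the second. The log2 fold change of CDK1 was -0.32 in the NOTCH1 and -0.34 in the RBPJ knockdown (standard error 0.15 for each, limma, adjusted p = 0.700 and 0.983).

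The B-type cyclins, which bind and activate CDK1, had log2 fold changes nearer 0 than those of their kinase. CCNB1 had 4100 and 3644 in the control, 3766 and 3728 in the NOTCH1 knockdown and 3623 and 3513 in the RBPJ knockdown. Its NOTCH1 knockdown libraries lay between the controls, and its RBPJ knockdown libraries lay just below both. The log2 fold changes of CCNB1 were -0.045 and -0.12, with a standard error of 0.10, and the first turned to 0.040 without replicate 1 of the control. CCNB2 had 556 and 517 in the control against 464 and 454 in the RBPJ knockdown, and its NOTCH1 knockdown libraries, at 571 and 462, enclosed both controls. CCNA2, the A-type cyclin of S and G2 phase, had 3067 and 3053 in the control, 2690 and 2906 in the NOTCH1 knockdown and 2728 and 2688 in the RBPJ knockdown. It was the cyclin of the 3 for which all 4 knockdown libraries lay below both controls.

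PLK1 and FOXM1 were higher by sign in both knockdowns, against the direction of most of the 48 genes, as were BORA, INCENP, SMC2, NCAPD2 and NCAPH. PLK1, the polo-like kinase that acts from mitotic entry to cytokinesis, had 2435 and 2571 in the control, 2887 and 3023 in the NOTCH1 knockdown and 2614 and 2926 in the RBPJ knockdown. Every knockdown library lay above both controls. The log2 fold changes of PLK1 were 0.24 and 0.14 (standard error 0.10, limma, adjusted p = 0.656 and 0.983). FOXM1, a transcription factor that activates G2 and M phase genes, had 862 and 966 in the control, 969 and 965 in the NOTCH1 knockdown and 1103 and 1031 in the RBPJ knockdown. Only its RBPJ knockdown libraries stood clear of the controls, at a log2 fold change of 0.22 (standard error 0.12). The G2 kinase WEE1, which holds CDK1 inactive, and the phosphatase CDC25C, which releases it, had ranges that overlapped between control and knockdown in both comparisons. CDC25C had 411 and 348 in the control, 370 and 311 in the NOTCH1 and 377 and 380 in the RBPJ knockdown. WEE1 had 237 and 196 in the control, 261 and 210 in the NOTCH1 and 199 and 188 in the RBPJ knockdown. AURKA, the spindle pole kinase, had 2470 and 2250 in the control against 2149 and 2112 in the RBPJ knockdown, with the NOTCH1 knockdown between 2339 and 2496. BORA, the cofactor through which AURKA activates PLK1, overlapped in both comparisons, between 188 and 246 over all libraries.

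**Figure D4:**
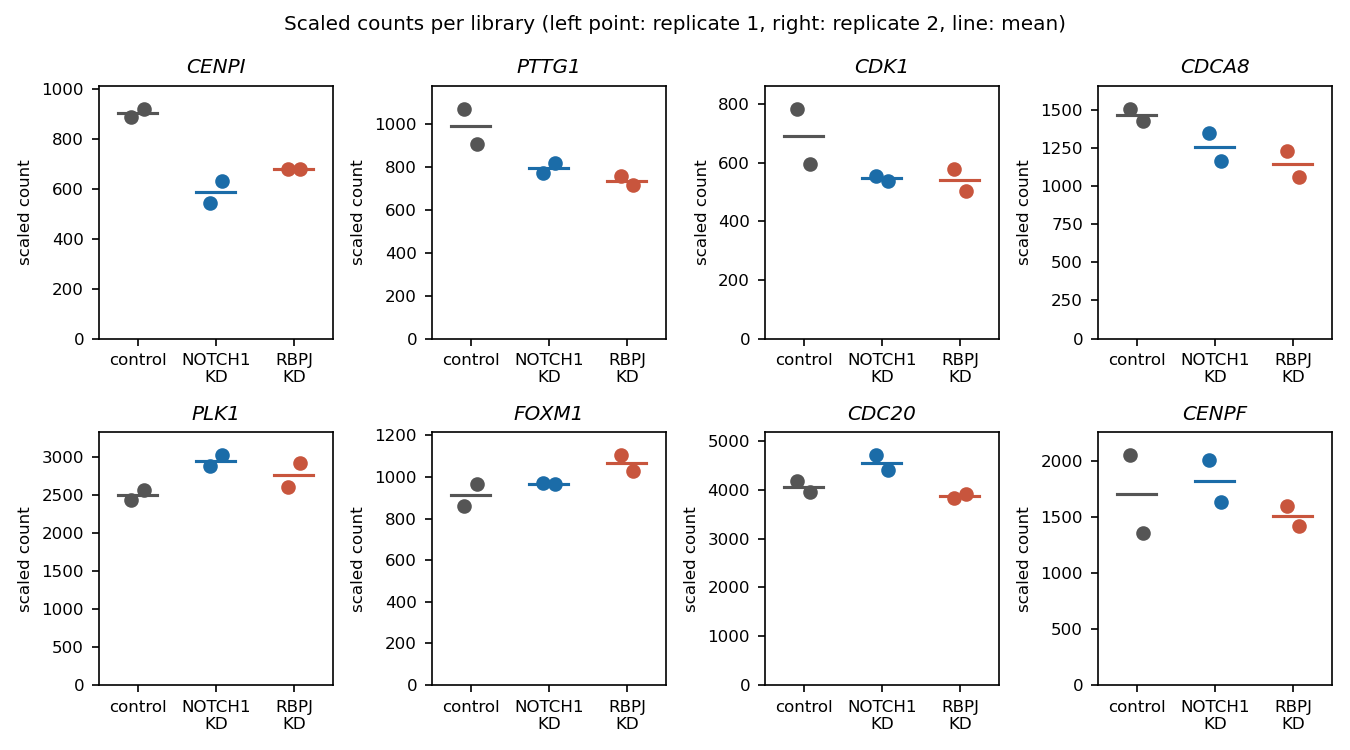
Each panel plots the scaled count of 1 gene, from 0, with the 2 libraries of each group as points and their mean as a line. CENPI, PTTG1, CDK1 and CDCA8 have all 4 knockdown libraries below both controls, PLK1 has all 4 above, and CDC20 has the NOTCH1 knockdown above and the RBPJ knockdown below the controls, whereas CENPF spans 1363 to 2053 within the control alone.

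All 6 genes of the spindle checkpoint and of cohesin protection were lower by sign in both knockdowns, with median log2 fold changes of -0.14 and -0.23. SGO1, shugoshin, which protects centromeric cohesin, had 465 and 446 in the control, 419 and 408 in the NOTCH1 knockdown and 371 and 363 in the RBPJ knockdown. The 3 groups did not overlap, and the RBPJ knockdown was lowest, with -0.31 as its log2 fold change (standard error 0.14, limma, adjusted p = 0.983). BUB3, a checkpoint scaffold protein, had 2153 and 1882 in the control, 1847 and 1790 in the NOTCH1 and 1752 and 1778 in the RBPJ knockdown. TTK, the kinase that starts the checkpoint signal, had 351 and 298 in the control, and its 4 knockdown libraries lay between 263 and 287. For BUB3 and TTK, as for SGO1, all knockdown libraries lay below both controls. These were 3 of the 6 genes in each comparison (50.0%, against 17.2% and 16.8% of all genes tested). The share of all genes with the pattern in both comparisons at once is not given here. BUB1, a checkpoint kinase, had 1384 and 1018 in the control, 1072 and 1120 in the NOTCH1 knockdown and 1057 and 863 in the RBPJ knockdown. It had the largest log2 fold change of the 6 in the RBPJ knockdown, -0.31, and yet its groups overlapped, since the second control library lay below 1 RBPJ knockdown library and both NOTCH1 knockdown libraries. BUB1B, another checkpoint protein, overlapped as well, at 1264 and 1002, 1062 and 914, and 1082 and 937. MAD2L1, the inhibitor of CDC20, overlapped too, with 1244 and 1109 in the control and knockdown libraries between 1024 and 1129.

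Of the 4 genes that act at anaphase onset, PTTG1 and ESPL1 were lower by sign in both knockdowns, and CDC20 and UBE2C were higher by sign in the NOTCH1 and lower in the RBPJ knockdown. PTTG1, securin, the inhibitor that anaphase destroys, had 1068 and 905 in the control, 772 and 818 in the NOTCH1 knockdown and 755 and 715 in the RBPJ knockdown. In group means this was 987 ± 115 (SD, n = 2), 795 ± 32.2 (SD, n = 2) and 735 ± 28.9 (SD, n = 2). The 3 groups did not overlap. The log2 fold change of PTTG1 was -0.31 in the NOTCH1 and -0.42 in the RBPJ knockdown (standard error 0.13, limma, adjusted p = 0.634 and 0.983), and without replicate 1 of the control these were -0.19 and -0.30. ESPL1, separase, the protease that securin holds back, had 5031 and 5122 in the control, 4327 and 4710 in the NOTCH1 and 4779 and 4295 in the RBPJ knockdown, below the controls in all 4 libraries.

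CDC20, the activator of the anaphase-promoting complex, had 4178 and 3949 in the control, 4707 and 4407 in the NOTCH1 knockdown and 3835 and 3919 in the RBPJ knockdown. Its NOTCH1 knockdown libraries lay above both controls and its RBPJ knockdown libraries below both, though the latter by little, at log2 fold changes of 0.17 and -0.067 with a standard error of 0.096. UBE2C, the ubiquitin-conjugating enzyme of that complex, had 2307 and 2034 in the control, 2262 and 2327 in the NOTCH1 knockdown and 1875 and 1966 in the RBPJ knockdown. Its NOTCH1 knockdown overlapped the controls, and its RBPJ knockdown lay below them.

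Of the chromosomal passenger complex, which corrects faulty attachments and later sets the site of cleavage, CDCA8 (borealin) was lowest against the control. CDCA8 had 1510 and 1433 in the control, 1349 and 1167 in the NOTCH1 knockdown and 1235 and 1059 in the RBPJ knockdown. All knockdown libraries lay below both controls, at log2 fold changes of -0.23 and -0.36 (standard error 0.12, limma, adjusted p = 0.747 and 0.983). BIRC5 (survivin) had 1109 and 1115 in the control against 1002 and 1035 in the RBPJ knockdown, with the NOTCH1 knockdown at 1161 and 998 on either side of the controls. AURKB, the kinase of the complex, had the same arrangement, with 703 and 719 in the control, 663 and 657 in the RBPJ and 743 and 640 in the NOTCH1 knockdown. INCENP, its scaffold, had 2131 and 2100 in the control, 2508 and 2179 in the NOTCH1 knockdown, above both, and 2112 and 2172 in the RBPJ knockdown. All 4 genes of the complex were higher in replicate 1 than in replicate 2 of the NOTCH1 knockdown, by a median of 0.21 on the log2 scale.

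CENPI had the log2 fold change farthest from 0 of the 48 genes in the NOTCH1 knockdown. CENPI, a protein of the inner kinetochore network that sits on centromeric chromatin, had 888 and 921 in the control, 545 and 631 in the NOTCH1 knockdown and 679 and 681 in the RBPJ knockdown. The 3 groups did not overlap, and here the control libraries were level, with replicate 2 slightly above replicate 1. In group means this was 905 ± 23.1 (SD, n = 2), 588 ± 61.0 (SD, n = 2) and 680 ± 0.893 (SD, n = 2). The log2 fold change of CENPI was -0.62 in the NOTCH1 knockdown, which as a percentage is 35.1% lower (standard error 0.13, limma, adjusted p = 0.346, or 0.0119 with the replicate number as a block). In the RBPJ knockdown CENPI had a log2 fold change of -0.41, 24.8% lower (limma, adjusted p = 0.983). Its value in the NOTCH1 knockdown lay between -0.73 and -0.52 whichever library was left out.

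Other centromere and kinetochore genes differed less: 7 of the 8 genes of this class, CENPI included, were lower by sign in each knockdown, with medians of -0.10 and -0.17. SPC25 and NUF2, both subunits of the NDC80 complex that holds microtubules, lay below the controls in the RBPJ knockdown. SPC25 had 306 and 249 in the control, 233 and 250 in the NOTCH1 and 218 and 209 in the RBPJ knockdown, with a log2 fold change of -0.37 (standard error 0.17) in the latter. NUF2 had 532 and 514 in the control, 499 and 482 in the NOTCH1 and 440 and 440 in the RBPJ knockdown, so that its groups did not overlap. NDC80 itself had 623 and 592 in the control against 577 and 511 in the RBPJ knockdown, and its NOTCH1 knockdown, at 543 and 600, overlapped. SPC24, the other subunit, overlapped in both comparisons, at 569 and 495, 562 and 432, and 485 and 547. Of the 4 NDC80 complex genes, 3 thus lay below both controls in the RBPJ knockdown (16.8% of all genes tested did) and 1 in the NOTCH1 knockdown, a share near the 17.2% of all genes. CENPA, the centromeric histone, overlapped in both comparisons, with 1479 and 1205 in the control, 1412 and 1125 in the NOTCH1 and 1219 and 1148 in the RBPJ knockdown. CENPF, with the wide control pair given above, had 2012 and 1634 in the NOTCH1 and 1601 and 1426 in the RBPJ knockdown, all within the control range. CENPE, a kinetochore motor, had 1020 and 741 in the control, and all 4 knockdown libraries but 1 (724) lay between these.

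Of the 5 spindle motor and microtubule-binding genes, 4 were lower by sign in the NOTCH1 and 5 in the RBPJ knockdown. KIF2C, a kinesin that takes microtubules apart, had 1329 and 1333 in the control, 1275 and 1300 in the NOTCH1 and 1279 and 1063 in the RBPJ knockdown, where 1 library stood well below the other. NUSAP1, a spindle-binding protein, had 1152 and 831 in the control, 936 and 783 in the NOTCH1 and 895 and 736 in the RBPJ knockdown. Its groups overlapped, and its log2 fold change in the NOTCH1 knockdown turned from -0.19 to 0.042 without replicate 1 of the control. DLGAP5, TPX2 and KIF11, which build and separate the spindle, were each lower in the second control library than in both NOTCH1 knockdown libraries. DLGAP5 had 1151 and 816 in the control, 963 and 961 in the NOTCH1 and 930 and 868 in the RBPJ knockdown. TPX2 had 2540 and 2059, 2306 and 2364, and 2270 and 1987, and KIF11 had 1032 and 816, 876 and 924, and 828 and 893, in the same order.

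Condensin and topoisomerase genes had medians near 0, with 3 of 6 lower by sign in each knockdown and values of 0.013 and -0.0010. None of the 6 lay below both controls in either knockdown, where 17.2% and 16.8% of all genes tested did, so that with 6 genes this count is near the share of all genes. NCAPH, a regulatory subunit of condensin I, had 814 and 927 in the control, 947 and 1020 in the NOTCH1 and 927 and 984 in the RBPJ knockdown, and its NOTCH1 knockdown lay above both controls. SMC2, the partner of SMC4, had 1058 and 823 in the control, 1032 and 1042 in the NOTCH1 and 957 and 927 in the RBPJ knockdown. Its log2 fold change of 0.15 in the NOTCH1 knockdown became -0.029 without replicate 2 of the control. TOP2A had 2926 and 2617 in the NOTCH1 and 2657 and 2374 in the RBPJ knockdown, against the wide control pair given above, and its log2 fold change of -0.23 in the RBPJ knockdown turned to 0.017 without replicate 1 of the control. SMC4 had 2357 and 2351 in the NOTCH1 and 2478 and 2283 in the RBPJ knockdown, all within its control range. NCAPD2 and NCAPG, the other condensin I subunits, overlapped in both comparisons, between 1354 and 1532 and between 618 and 778 over all libraries.

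All 5 cytokinesis genes were lower by sign in both knockdowns, with medians of -0.057 and -0.19. ANLN, anillin, which organizes the cleavage furrow, had 737 and 720 in the control, 577 and 618 in the NOTCH1 knockdown and 625 and 589 in the RBPJ knockdown. The control libraries were level and all knockdown libraries lay below them, at log2 fold changes of -0.29 and -0.26 (standard error 0.12, limma, adjusted p = 0.656 and 0.983). KIF20A, a kinesin of the central spindle, had 4404 and 4193 in the control, 4322 and 4268 in the NOTCH1 and 4127 and 3968 in the RBPJ knockdown, just below both controls in the last. PRC1, which bundles the central spindle, had 2506 and 2066 in the control, 2218 and 2157 in the NOTCH1 and 2130 and 1870 in the RBPJ knockdown. ECT2, which activates the contractile ring, had 1116 and 860, 926 and 894, and 897 and 808. Both overlapped, and the log2 fold change of ECT2 in the NOTCH1 knockdown turned from -0.11 to 0.081 without replicate 1 of the control. KIF23, the motor subunit of centralspindlin, overlapped as well, between 1763 and 2164 over all libraries.

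Set against each other by their means, which do not use the control libraries, the NOTCH1 knockdown stood slightly above the RBPJ knockdown. The standard errors and p-values below came from the limma fit over all 6 libraries, so the controls entered the estimate of the spread. Of the 48 genes 10 (20.8%, against 47.3% of all genes tested) had the lower mean in the NOTCH1 knockdown and 38 the higher, and the median log2 difference was 0.084 (0.011 over all genes). Both NOTCH1 knockdown libraries lay above both RBPJ knockdown libraries for 20 genes (41.7%, against 17.5% of all genes tested) and below both for 4 (8.33%, against 15.5%). The 4 were CDC25C, CENPE, CENPI and FOXM1, named after their values were seen. limma called 0 of the 48 at an adjusted p below 0.05, where 0.00829% of all genes passed, and 0 with the replicate block, where 0.124% did. Before adjustment 0 had a p below 0.05 downward (1.83% of all genes) and 2 upward (1.81% of all genes). These 2 were UBE2C, at a log2 difference of 0.26 with a standard error of 0.11, and CDC20, at 0.23 (standard error 0.096, limma, adjusted p = 0.999 for both). CENPI was lower in the NOTCH1 knockdown, at -0.21 with a standard error of 0.13, PTTG1 was higher at 0.11, CCNB1 at 0.071, and CDK1 was nearly level at 0.016. The median difference lay between 0.049 and 0.12 whichever library was left out, nearest 0 without replicate 2 of the RBPJ knockdown, and was 0.046 after rescaling to equal totals, with 13 lower and an all-gene median of -0.027.

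The wider G2 and mitosis machinery was read from 125 further genes in 5 lists, all of which were tested. Of these, 77 had a lower mean in the NOTCH1 knockdown than in the control (median log2 fold change -0.046) and 92 in the RBPJ knockdown (median -0.081), and limma called 0 in either at an adjusted p below 0.05, with 8 and 7 at an unadjusted p below 0.05. These are 6.4% and 5.6% of the 125, near the 7.29% and 4.34% of all genes tested. Other centromere, kinetochore and checkpoint genes were lower in 25 and 30 of 34 cases (medians -0.080 and -0.16). The remaining lists had smaller shares lower: the condensin, spindle and cytokinesis list had 22 and 27 of 35 lower, other G2 regulators 13 and 17 of 24, the anaphase-promoting complex 9 and 11 of 18, and cohesin 8 and 7 of 14. Their library pattern was similar in that replicate 1 of the control was highest in the median for every list but the anaphase-promoting complex.

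**Figure D5:**
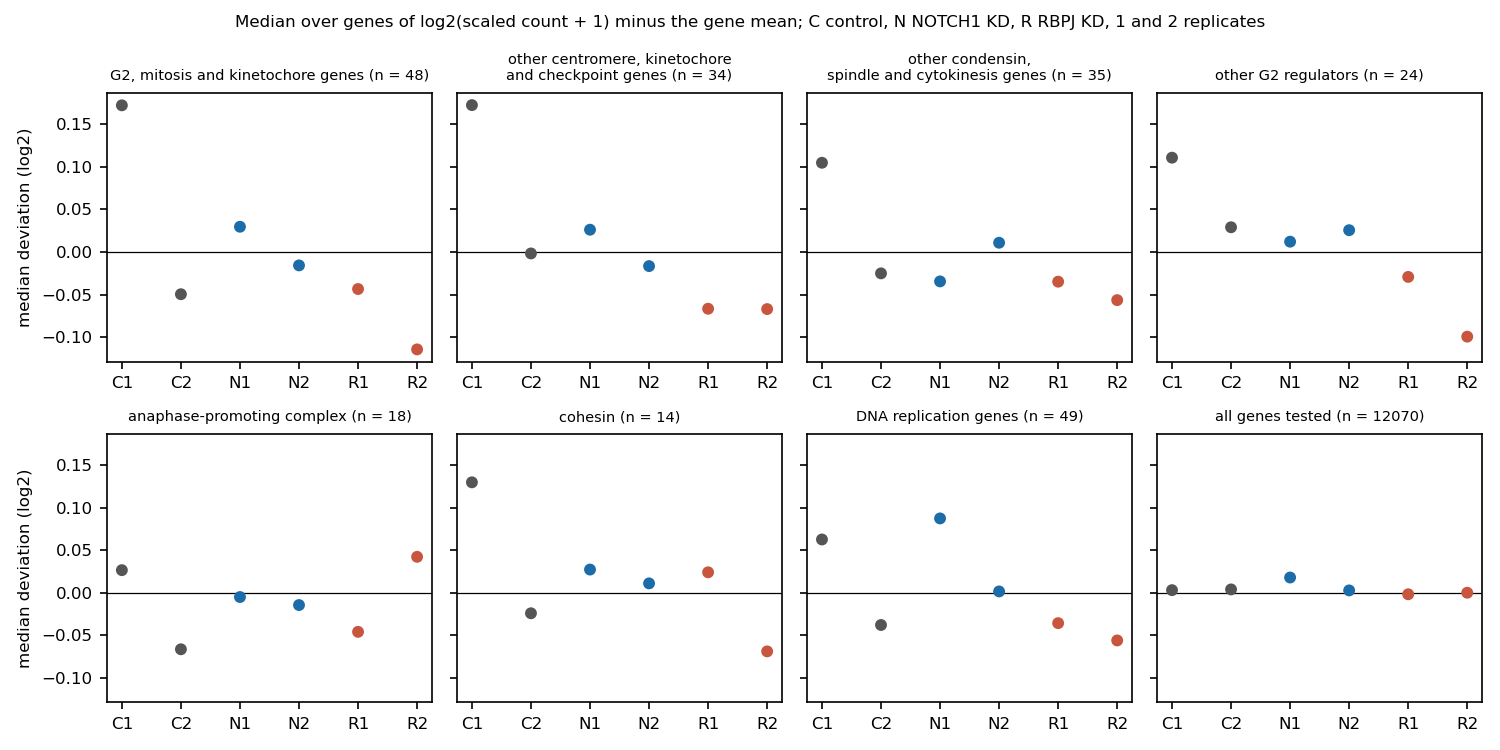
Each panel plots, for 1 gene list, the median over its genes of log2(scaled count + 1) minus the gene's mean, by library (C control, N NOTCH1 knockdown, R RBPJ knockdown, 1 and 2 replicates). The 48 genes and the other kinetochore genes share a high first control library, each at 0.17, while DNA replication genes are highest in the first NOTCH1 knockdown library at 0.087 and all genes tested stay near 0.

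Among these 125 genes, LIN52 had the largest difference from the control. LIN52, a subunit of the MuvB core that represses or activates cell cycle genes depending on its partners, had 159 and 219 in the control, 84.6 and 91.0 in the NOTCH1 knockdown and 97.8 and 91.9 in the RBPJ knockdown. All knockdown libraries lay near or under 100 and both controls well above. The log2 fold changes of LIN52 were -1.08 and -0.97 (standard error 0.23, limma, adjusted p = 0.346 and 0.983). MYBL2, the transcription factor that joins MuvB to activate G2 genes, had 5577 and 5476 in the control, 7203 and 6653 in the NOTCH1 knockdown and 6460 and 5471 in the RBPJ knockdown. Both NOTCH1 knockdown libraries lay above both controls, a log2 fold change of 0.32, and the RBPJ knockdown overlapped them. CDC25B, the phosphatase that starts CDK1 activation at the centrosome, had 380 and 353 in the control, 242 and 229 in the NOTCH1 and 332 and 205 in the RBPJ knockdown. CKS1B, a small CDK-binding subunit, had 425 and 496 in the control against 327 and 361 in the RBPJ knockdown.

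FZR1, an activator of the anaphase-promoting complex, and FBXO5, an inhibitor, were picked from their list by p and lay on opposite sides of the control. FZR1 (CDH1), which keeps the complex active in late mitosis and G1, had 623 and 772 in the control, 1026 and 865 in the NOTCH1 and 843 and 877 in the RBPJ knockdown. FBXO5 (EMI1), which inhibits the complex in S and G2 phase, had 671 and 583 in the control, 497 and 494 in the NOTCH1 and 549 and 465 in the RBPJ knockdown. FZR1 lay above both controls and FBXO5 below both in all 4 knockdown libraries. CDC20, the activator among the 48 genes, lay above both controls in the NOTCH1 knockdown and below both in the RBPJ knockdown. The share of all genes tested that lay on the same side of the controls in all 4 knockdown libraries is not given here. Their log2 fold changes were 0.44 and 0.31 for FZR1 and -0.34 and -0.31 for FBXO5 (standard error 0.14 for each, limma, adjusted p = 0.488 and 0.983, and 0.647 and 0.983). Both were among the genes with the smallest p of the 18 in this list. In the NOTCH1 knockdown 3 of the 18 lay below both controls (16.7%, against 17.2% of all genes tested) and 4 above (22.2%, against 18.6%). In the RBPJ knockdown 3 lay below (16.7%, against 16.8%) and 3 above (16.7%, against 15.3%). The list as a whole was thus near the shares of all genes. ANAPC11, the catalytic RING subunit of the complex, had 313 and 351 in the control against 403 and 394 in the NOTCH1 knockdown. UBE2S, which extends the ubiquitin chains, had 4418 and 5147 in the control against 4205 and 4225 in the RBPJ knockdown.

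Of the other kinetochore genes, CENPS, a histone-fold protein of the inner kinetochore, had 302 and 328 in the control, 217 and 263 in the NOTCH1 and 217 and 251 in the RBPJ knockdown, with log2 fold changes of -0.40 and -0.43. CENPC and CENPQ, both of the inner kinetochore, had log2 fold changes of -0.26 and -0.31 in the NOTCH1 knockdown, and ZW10 and NSL1, of the outer kinetochore, had -0.28 and -0.31 in the RBPJ knockdown. SPAG5 (astrin), a spindle protein, had 837 and 813 in the control, 625 and 698 in the NOTCH1 and 693 and 696 in the RBPJ knockdown. Its control libraries were level and its knockdown libraries all lay below them. In the RBPJ knockdown, KIF4A, a chromosome-bound kinesin, had a log2 fold change of -0.31, and PLK4, the kinase that starts centriole duplication, one of -0.43. In the NOTCH1 knockdown, SASS6, a centriole protein, had one of -0.28 and TUBG1, gamma-tubulin, one of 0.23. Cohesin genes with the smallest p were HDAC8 (0.21), SMC1A (0.22) and ESCO1 (-0.28) in the NOTCH1 and PDS5A (-0.25), ESCO1 (-0.34) and SMC1A (0.14) in the RBPJ knockdown. None of these passed limma after adjustment.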

How the data were processed

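RNA sequencing libraries of 6 embryo pools were analysed, 2 per group. The signal values are read counts that the authors scaled before they deposited them, as judged from the values; the submitters' processing notes list Salmon 0.14.1, DESeq2 and, as genome build, ARS-UCD1.2, without saying which did what. Of low values, 85.4% to 87.3% lay within 0.1 of a multiple of 1 step per library, too few to recover whole reads, so no count test was run. The 2551 of 17922 rows without a name were left out, and of 57 repeated symbols the row with the higher mean was kept. Reads of overlapping, antisense and near-identical genes cannot be told apart. Spike-in rows were not used here, and neither sequences nor coordinates are printed.

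Values were taken as log2(value + 1), and the 12070 named genes averaging 10 or more were fitted with limma 3.58.1 (R 4.3.3) as group means over all 6 libraries, with 3 residual degrees of freedom, trended variance moderation and Benjamini-Hochberg adjustment over all genes. An exact permutation test of 2 against 2 libraries cannot give a two-sided p below 0.333. Nothing in the labels says that libraries of a group came from separate collections, so the p-values reflect only how far these libraries differ, which may be technical. The genes and lists were chosen with earlier results of these data known. Values per library were given, by rule, for CDK1, CCNB1, PTTG1, CENPI and the 2 genes of each role class with the smallest p in each comparison with the control, and further members were added for completeness; of the further lists the 3 genes with the smallest p in either comparison were taken. The fit was also run on simulated data. The changes set there were larger than any of the 48 genes, so that run cannot show whether changes of their size would be called. The alternatives changed the pseudocount (0.1 or 10), the filter (none, or a minimum mean of 100), the scaling, the variance model and the groups fitted (the 2 compared), added the replicate number as a block, or left out 1 library at a time. Plots were made in Python 3.11.15 with matplotlib 3.10.9.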

Additional observations from a re-analysis of the deposited data

Results flagged for a closer look

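CDC20 lay above both controls in both NOTCH1 knockdown libraries and below both controls in both RBPJ knockdown libraries, the latter by little, at log2 fold changes of 0.17 and -0.067 (standard error 0.096 for each, limma, adjusted p = 0.761 and 0.995). Neither passed. The difference between the knockdowns was 0.23 on the log2 scale (limma, adjusted p = 0.999).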

How the results depend on the processing

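Of the settings other than omitted libraries, none moved the median log2 fold change of the 48 genes by more than the pooled spread between replicates of 0.097. That spread was larger in size than the medians of -0.071 in the NOTCH1 knockdown and 0.084 between the knockdowns. Staying within it therefore cannot show that either median was stable. Equal totals and quantile normalization took the median to -0.12 and -0.11 in the NOTCH1 knockdown and to 0.046 and 0.057 between the knockdowns. Each count of genes lower by sign stayed within 1.5 times. Over omitted libraries the median ran from -0.17 to 0.041 in the NOTCH1 knockdown, from -0.26 to -0.033 in the RBPJ knockdown and from 0.049 to 0.12 between the knockdowns, with 21 to 42, 30 to 44 and 8 to 15 genes lower. Calls over all genes ran from 0 to 1, from 1 to 3 and from 0 to 3. Moderation without a trend left 0 calls in the RBPJ knockdown and 0 between the knockdowns.

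Same-numbered libraries deviated together weakly, with correlations across genes of 0.167 to 0.213, but the labels do not say what a number shares. With the replicate number as a block limma called 138 genes in the NOTCH1 knockdown, 1 of them of the 48 (CENPI, log2 fold change -0.62, adjusted p = 0.0119), 12 in the RBPJ knockdown and 15 between the knockdowns, with 0 of the 48 in either. The adjusted p of CENPI in the NOTCH1 knockdown ran up to 0.999 over the alternatives.

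Without replicate 1 or replicate 2 of the control, the NOTCH1 knockdown values were 0.040 or -0.13 for CCNB1, 0.081 or -0.29 for ECT2, 0.042 or -0.43 for NUSAP1 and 0.33 or -0.029 for SMC2, and the RBPJ knockdown value of TOP2A was 0.017 or -0.47. Between the knockdowns CDK1 turned to -0.022 with equal totals, -0.011 with quantile normalization, -0.0057 without replicate 1 of the NOTCH1 knockdown and -0.083 without replicate 2 of the RBPJ knockdown. The cause was not tested. Depth was known only approximately, and no counting interval was computed.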

Other observations

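DNA replication genes, which act in the phase before G2, had their highest median in replicate 1 of the NOTCH1 knockdown, and, as for the 48 genes, replicate 1 of the control lay above its replicate 2 and replicate 2 of the RBPJ knockdown was lowest. Their median deviation was 0.063 and -0.038 in the control, 0.087 and 0.0017 in the NOTCH1 knockdown and -0.036 and -0.056 in the RBPJ knockdown. Of 49 such genes, 24 had a lower mean in the NOTCH1 knockdown than in the control and 33 in the RBPJ knockdown, with median log2 fold changes of 0.0062 and -0.055, and 10 were lower in the NOTCH1 than in the RBPJ knockdown, with a median difference of 0.095. limma called 0 of the 49 at an adjusted p below 0.05 in any of the 3 comparisons, with 2, 3 and 2 at an unadjusted p below 0.05, which are 4.08%, 6.12% and 4.08% of the 49, beside 7.29%, 4.34% and 3.64% of all genes tested.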
